A study of Mus musculus with 9 samples.

Results

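A set of 9 genes of the extracellular matrix and its remodelling was followed in mouse sublingual salivary gland after irradiation: Postn, Sparc, Fn1, Tgfb1, Lox, Mmp2, Mmp14, Timp2 and Timp3. They were chosen by name as early fibrosis-related genes of stroma, 9 of the 54532 genes counted, and all 9 passed the filter on low counts that left 15348 genes. Total RNA from sections of the gland was sequenced in 9 libraries, all labelled wild-type. There were 3 libraries from glands that received no radiation, 3 from glands taken 7 days after 10 Gy and 3 from glands taken 14 days after 10 Gy. Strain, age, sex, the irradiated field and the hour of collection are not given in the labels, nor is it stated that each library came from a separate animal, so the p-values reflect only variation among these libraries, part of which may be technical.

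Stroma holds tissue together through a matrix that fibroblasts and mural cells secrete, crosslink and degrade. Matricellular proteins such as periostin and SPARC bind collagen and cell surfaces without being its main building material, fibronectin forms a scaffold on which collagen is laid down, and lysyl oxidase crosslinks collagen and elastin. Secreted MMP2 is activated at the cell surface by the membrane protease MMP14 together with TIMP2, the TIMP proteins inhibit metalloproteinases, and the cytokine TGF-beta 1 raises the output of matrix genes in many fibrotic tissues.

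Promoters of 3 members are shown because these genes had the largest rises at day 7, Postn and Timp3, and the only fall that passed the test, Tgfb1. Each window runs 5′ to 3′ on the gene's strand, from 250 bases before the annotated start to 50 after it, in RefSeq on GRCm38.p6. The windows are Postn at chr3:54360857-54361156 (plus strand), Timp3 at chr10:86300162-86300461 (plus strand) and Tgfb1 at chr7:25686752-25687051 (plus strand). Capitals mark matches to the letters searched.
Postn: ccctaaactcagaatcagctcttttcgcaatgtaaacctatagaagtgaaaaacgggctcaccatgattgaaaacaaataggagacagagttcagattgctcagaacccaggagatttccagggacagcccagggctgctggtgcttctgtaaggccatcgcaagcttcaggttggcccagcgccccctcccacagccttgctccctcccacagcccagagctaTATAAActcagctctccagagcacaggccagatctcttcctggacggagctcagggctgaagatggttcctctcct
Timp3: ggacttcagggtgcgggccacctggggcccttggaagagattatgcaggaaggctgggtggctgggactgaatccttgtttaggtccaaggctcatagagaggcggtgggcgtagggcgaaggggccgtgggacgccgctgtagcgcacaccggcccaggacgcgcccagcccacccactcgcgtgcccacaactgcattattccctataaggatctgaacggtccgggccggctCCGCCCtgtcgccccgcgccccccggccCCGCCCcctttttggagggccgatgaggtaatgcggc
Tgfb1: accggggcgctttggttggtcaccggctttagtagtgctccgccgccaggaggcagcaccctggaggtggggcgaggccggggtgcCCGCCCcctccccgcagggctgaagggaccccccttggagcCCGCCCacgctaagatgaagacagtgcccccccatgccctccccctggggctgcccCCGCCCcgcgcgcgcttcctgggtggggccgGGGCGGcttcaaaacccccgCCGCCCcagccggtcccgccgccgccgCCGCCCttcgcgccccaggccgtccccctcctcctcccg

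The letters searched on both strands were TATAAA (the TATA box), GGGCGG (the GC box of SP1 factors), CAGAC (a short element of SMAD proteins), TGANTCA (the AP-1 element) and CACGTG (an E-box), and matches were allowed to overlap. Postn held TATAAA, which begins 26 bases before the start, and none of the others. Timp3 held 2 matches of GGGCGG and Tgfb1 held 6, most of them as CCGCCC, and neither held the other letters. Over all 32851 RefSeq windows of this length, 13.6% held TATAAA, 35.7% GGGCGG, 49.6% CAGAC, 7.81% TGANTCA and 7.15% CACGTG. RefSeq lists a further Postn window upstream, which held CAGAC and none of the others. A match is a description of these letters, not evidence of binding.

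Library totals ran from 15962399 to 19441239 counts. Control library 3 differed most from its group: the chi-square per degree of freedom of counts was 124 and 86.9 against the other controls, which differed by 14.6 from each other, and 9.19 to 28.6 between libraries of the irradiated groups. Markers of the mucous acinus summed to 349883, 324219 and 251902 CPM (counts scaled to library size by TMM) in the controls. They summed to 233821 to 250582 CPM at day 7 and 256396 to 281302 CPM at day 14. Control library 3 thus lay within the range of the irradiated libraries. Those of skeletal muscle summed to at most 8.48 CPM. Of 10 mucous acinar markers 9 were tested, and 7 fell and 2 rose at day 7 (5 and 1 after the length and GC correction). Over all tested genes 14.8% fell and 15.8% rose at day 7 before that correction. After it 1858 of 15348 genes fell and 1251 rose. In such tissue RNA, fewer cells of a type and less RNA per cell cannot be told apart.

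Levels between genes were compared as CPM per kilobase of exon, with all annotated exons of a gene pooled. Postn has 8702 such bases and 3205 in its longest coding transcript, and Lox has 4778 and 4741. The order given here holds for pooled exons and changes with the length used. In controls Timp2 and Sparc stood highest, at 42.9 ± 3.36 and 38.6 ± 2.90 CPM per kb (mean ± SD, n = 3), and their libraries overlapped. Lox followed at 10.4 ± 0.539. Mmp2, Mmp14 and Timp3 lay between 7.06 and 7.71 with overlapping libraries, Postn at 4.83 ± 1.03 overlapped Tgfb1 at 3.99 ± 0.0963, and Fn1 was lowest at 1.60 ± 0.131. At day 7 Timp3 (12.0 ± 2.14) stood level with Lox (13.1 ± 0.779), and Postn (7.76 ± 0.887) with Mmp14 (7.37 ± 0.344), and Timp2, Sparc and Lox had the highest means and Fn1 the lowest in both irradiated groups.

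At day 7 against control 4 of the 9 members rose (Timp3, Postn, Mmp2 and Lox), 1 fell (Tgfb1) and 4 did not pass an adjusted p of 0.05 in edgeR's quasi-likelihood test with Benjamini-Hochberg adjustment, which gives every adjusted p here unless another tool is named. After a correction for gene length and GC content, Postn and Lox no longer passed. Over all tested genes 30.6% passed in that comparison, 15.8% higher and 14.8% lower. At day 14 against control 1 member rose, Postn, where 1.76% of all genes passed, 1.13% higher. That count rests on the setting: DESeq2 and limma-voom each called 3 members, among 1042 and 1678 genes, and leaving out 1 library gave 0 to 3 members among 13 to 1937 genes. At day 14 against day 7 edgeR called none, where 6.59% of all genes passed. An unadjusted p under 0.05 was found for 2 members, Sparc and Tgfb1, and for 22.7% of all genes, and DESeq2 called none and limma-voom called both of these. The libraries of both groups did not overlap for the 5 called members at day 7, where 43.9% of all genes did not overlap, for Postn, Lox and Timp3 at day 14 against control, where 23.1% did not, and for Sparc, Tgfb1 and Mmp14 between day 14 and day 7, where 29.4% did not. The comparisons at day 7 and day 14 share the control libraries. The median log2 change of the members was 0.160 at day 7 and 0.301 at day 14 against control, beside 0.021 and 0.011 over all tested genes. After the length and GC correction these medians were 0.080 and 0.239, beside −0.025 and −0.020.

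**Figure D1:**
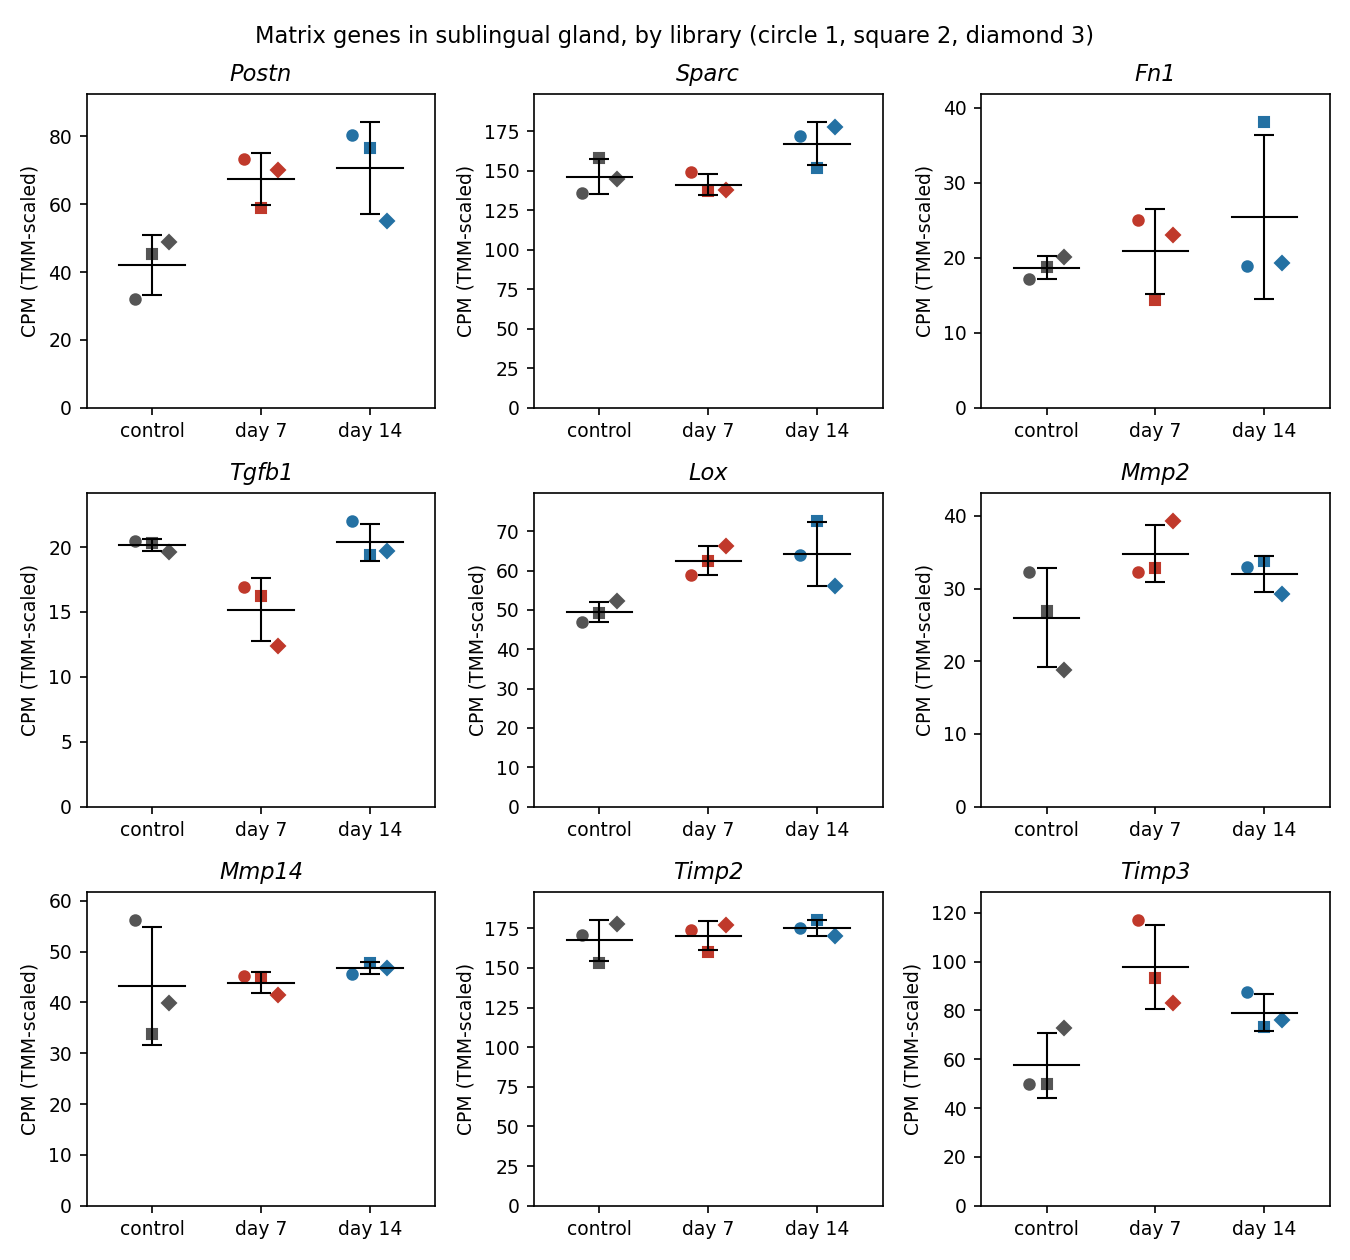
TMM-scaled CPM of each of the 9 genes in each library, by group, with the mean (line) and SD (bars) of 3 libraries; axes start at 0 and differ between panels. Postn and Timp3 lie higher in every irradiated library than in every control, and Tgfb1 lies lower in every day 7 library.

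Postn, which encodes the collagen-binding matricellular protein periostin (ENSMUSG00000027750, chromosome 3, 54361109 to 54391037), stood at 32.0, 45.3 and 48.9 CPM in the controls. It stood at 73.5, 58.8 and 70.2 CPM at day 7 and at 80.3, 76.6 and 55.2 CPM at day 14. All irradiated libraries lay above all controls, and the 2 irradiated groups overlapped. Postn rose 1.60-fold at day 7 (log2 0.68, SE 0.164, adjusted p = 0.00608) and 1.68-fold at day 14 (log2 0.75, SE 0.164, adjusted p = 0.0362). Day 14 differed from day 7 by log2 0.066 (SE 0.161, adjusted p = 0.871). The day 7 call held with any library left out (log2 0.51 to 0.79) but not after the length and GC correction (log2 0.24, adjusted p = 0.226). The day 14 call ended on removing control 1, control 2, day 7 library 3, day 14 library 1 or day 14 library 2 (log2 0.57 to 0.78 in these fits, adjusted p up to 0.132).

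Sparc, the matricellular glycoprotein SPARC that binds collagen and calcium (ENSMUSG00000018593, chromosome 11, 55394500 to 55423183), stood at 136, 158 and 145 CPM in controls and 149, 137 and 138 CPM at day 7. At day 14 it stood at 172, 152 and 178 CPM. The day 14 libraries lay above all day 7 libraries and overlapped the controls. No change passed, at log2 −0.050 (SE 0.0916) at day 7, 0.196 (SE 0.0915, adjusted p = 0.224) at day 14 and 0.245 (SE 0.0914, adjusted p = 0.111) from day 7 to day 14.

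Fn1, which encodes fibronectin (ENSMUSG00000026193, chromosome 1, 71585520 to 71653200), stood at 17.1, 18.8 and 20.1 CPM in controls, at 25.1, 14.4 and 23.1 CPM at day 7 and at 18.9, 38.1 and 19.3 CPM at day 14. Day 14 library 2 was the highest and day 7 library 2 the lowest of all. The changes did not pass, at log2 0.160 (SE 0.295) at day 7 and 0.449 (SE 0.293, adjusted p = 0.418) at day 14, and without day 14 library 2 the day 14 change was 0.011. Its exons overlap those of Apol7d on the other strand, which had 3 counts over all libraries.

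The profile of Fn1 over the 9 libraries was nearest to those of Cd163 and F13a1, which encode a macrophage scavenger receptor and a subunit of coagulation factor XIII. Likeness was measured as the root mean square difference of log2 CPM, each gene centred on its mean, among 10143 other genes with a mean of at least 5 CPM. The difference was 0.0983 to Cd163, 0.113 to F13a1 and 0.164 to Lactb, the third nearest, where Fn1 itself varied by 0.375 around its mean. In all, 2243 of the 10143 genes lay nearer to Fn1 than that variation. Cd163 stood at 14.9 CPM in day 14 library 2 and at 6.10 in day 7 library 2, the highest and the lowest of its 9 values. The 12 fibroblast markers summed to 1079 CPM in day 14 library 2 and to 637 in day 7 library 2, also their extremes, and to 703 to 823 elsewhere. Per summed fibroblast marker, Fn1 was 2.49 ± 0.380% in controls, 2.77 ± 0.467% at day 7 and 2.94 ± 0.514% at day 14. Gsn alone averaged 424 CPM in controls, a large part of the marker sum, so these shares are not values per fibroblast. The part of these cell types in the spread of Fn1 was not tested. Other members had nearest profiles in genes outside these pathways, such as Cdc27 for Postn (0.101) and Enpp2 for Mmp2 (0.103), and 4005 genes lay nearer to Postn than its own variation of 0.408.

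**Figure D2:**
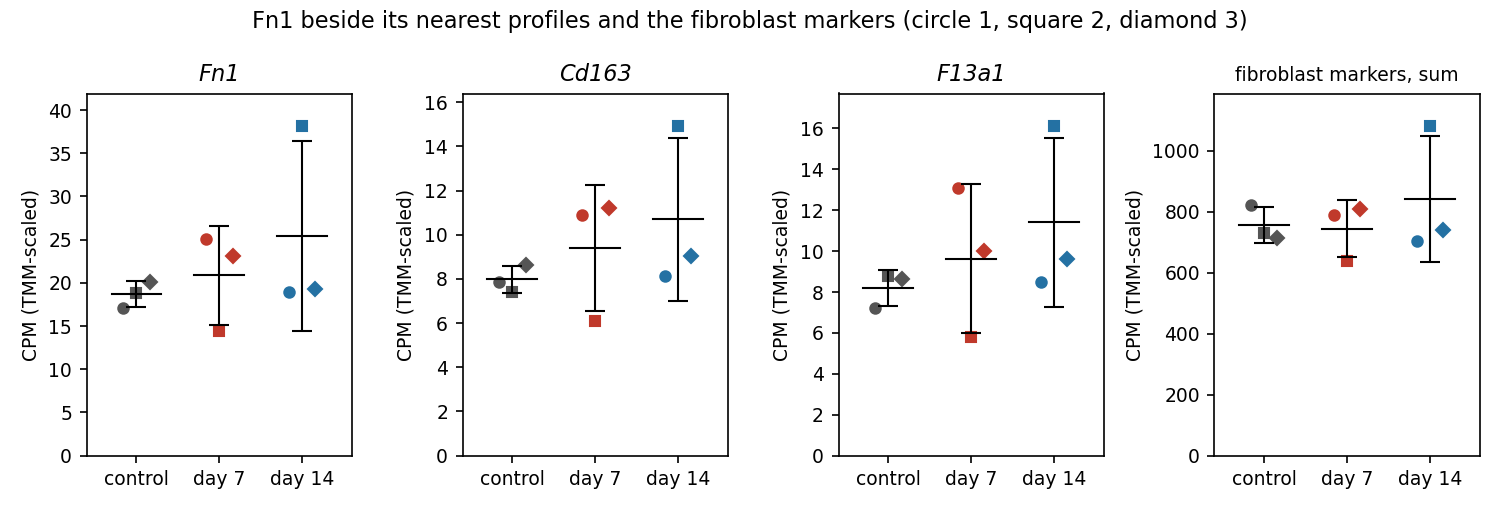
TMM-scaled CPM of Fn1, of Cd163 and F13a1, and the summed CPM of 12 fibroblast markers in each library, with mean and SD of 3 libraries per group. In all 4 panels day 14 library 2 is the highest and day 7 library 2 the lowest.

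Tgfb1, the ligand TGF-beta 1 (ENSMUSG00000002603, chromosome 7, 25687002 to 25705077), stood at 20.5, 20.3 and 19.6 CPM in controls. It stood at 16.9, 16.2 and 12.4 CPM at day 7 and at 22.0, 19.4 and 19.7 CPM at day 14. Every day 7 library lay below every control and every day 14 library. Tgfb1 fell at day 7 by 0.409 on the log2 scale (SE 0.141, adjusted p = 0.0341) and at day 14 differed from control by 0.017 (SE 0.140). The difference of day 14 from day 7 was log2 0.426 (SE 0.141, adjusted p = 0.0743), short of the threshold. The fall was no longer called on removing control 1, control 2, day 7 library 2 or day 7 library 3 (log2 −0.46 to −0.28 in these fits, adjusted p up to 0.169).

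Lox, the enzyme that crosslinks collagen and elastin (ENSMUSG00000024529, chromosome 18, 52516067 to 52529867), stood at 47.0, 49.2 and 52.2 CPM in controls, 58.8, 62.4 and 66.2 CPM at day 7 and 64.0, 72.6 and 56.1 CPM at day 14. All irradiated libraries lay above all controls. Lox rose 1.26-fold at day 7 (log2 0.34, SE 0.108, adjusted p = 0.0239). At day 14 the change was log2 0.38 (SE 0.108, adjusted p = 0.0671), short of the threshold in edgeR and past it in DESeq2 (adjusted p = 0.0331). Removing control 1, control 2, day 7 library 2 or day 7 library 3 ended the day 7 call (log2 0.29 to 0.34 in these fits, adjusted p up to 0.0899). The length and GC correction ended it too (log2 0.080, adjusted p = 0.618). The exons of Lox overlap those of AC161119.1 on the other strand, which was not analysed here.

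Mmp2, the secreted gelatinase A (ENSMUSG00000031740, chromosome 8, 92827291 to 92853420), stood at 32.3, 26.9 and 18.8 CPM in controls, 32.3, 32.9 and 39.3 CPM at day 7 and 33.0, 33.8 and 29.2 CPM at day 14. The highest control and the lowest day 7 library were equal to the digits printed, and control library 3 was the lowest of all. Mmp2 rose 1.34-fold at day 7 (log2 0.42, SE 0.156, adjusted p = 0.0473), and at day 14 the change was 0.30 (SE 0.156, adjusted p = 0.280). Without control library 3 the day 7 change was log2 0.21 (adjusted p = 0.228). The call was also lost in each other fit that left out 1 library, except that without control library 1 (log2 0.61), and with DESeq2 size factors (adjusted p = 0.0569).

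Mmp14, the membrane protease MT1-MMP that activates MMP2 (ENSMUSG00000000957, chromosome 14, 54431612 to 54445364), stood at 56.2, 33.8 and 39.8 CPM in controls, 45.1, 45.0 and 41.5 CPM at day 7 and 45.5, 47.8 and 46.8 CPM at day 14. The controls held both the highest and the lowest library, and all day 14 libraries lay above all day 7 libraries. Its changes from control did not pass, at log2 0.020 (SE 0.140) at day 7 and 0.109 (SE 0.140) at day 14. Leaving out 1 library moved the day 7 value between −0.14 and 0.25.

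Timp2, a secreted inhibitor that also takes part in MMP2 activation (ENSMUSG00000017466, chromosome 11, 118301069 to 118355740), stood at 171, 153 and 178 CPM in controls. It stood at 174, 160 and 177 CPM at day 7 and 175, 180 and 170 CPM at day 14. The groups overlapped throughout, and the changes from control were log2 0.027 (SE 0.0873) at day 7 and 0.066 (SE 0.0873) at day 14, neither past the threshold.

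Timp3, the inhibitor that binds to the matrix itself (ENSMUSG00000020044, chromosome 10, 86300372 to 86349506), stood at 49.8, 49.9 and 72.7 CPM in controls. It stood at 117, 93.1 and 83.2 CPM at day 7 and 87.6, 73.2 and 76.1 CPM at day 14. All irradiated libraries lay above all controls, with control library 3 just under the lowest day 14 library. Timp3 rose 1.70-fold at day 7 (log2 0.77, SE 0.153, adjusted p = 0.00183), also with any library left out (log2 0.62 to 0.95). At day 14 the change was log2 0.46 (SE 0.153, adjusted p = 0.109), and without control library 3 it was 0.63 (adjusted p = 0.00521). Timp3 lies within Syn3 on the other strand, whose exons it overlaps and which had 11 to 31 counts per library against 739 to 2157 for Timp3.

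Markers of other stromal cells were measured beside these genes. Over all tested genes 15.8% passed as higher and 14.8% as lower at day 7. After the length and GC correction 1251 of 15348 genes passed as higher and 1858 as lower. The 10 pericyte and smooth muscle markers summed to 641 to 740 CPM in controls, 751 to 901 at day 7 and 741 to 778 at day 14, and Cspg4, Notch3 and Myh11 rose and Des fell at day 7. The 10 endothelial markers summed to 386 to 424, 462 to 543 and 440 to 473, and Tek and Vwf rose at day 7. Of the 12 fibroblast markers Dpp4 rose at day 7, the other 11 did not pass, and the sums overlapped between all groups. After the length and GC correction Dpp4 was at log2 −0.03, Dcn (−0.34, adjusted p = 0.0226) and Cd34 (−0.53, adjusted p = 0.0357) passed as lower, Tek and Vwf did not pass, and of the pericyte and smooth muscle markers Acta2 and Myh11 passed as higher and none as lower. Acta2 and Myh11 are also in the list of 9 basal and myoepithelial markers, and Acta2 stood at 389 ± 40.6 CPM in controls. Of that list 8 were tested, and Col17a1, Itgb4 and Myh11 rose at day 7. After the correction 5 of that list passed as higher. Which of these cell types gave the rises was not tested. None of the markers in these lists was at 0 in all libraries. As a share of the fibroblast marker sum, Postn was 5.65 ± 1.56% in controls and 9.08 ± 0.335% at day 7, and Timp3 was 7.70 ± 2.20% and 13.3 ± 2.56%. Neither overlapped, but for Timp3 the lowest day 7 library (10.3%) lay only just above the highest control (10.2%). How many of all genes separate on this measure was not tested, and in CPM 43.9% did not overlap. At day 14 the Postn shares were 11.4, 7.10 and 7.44%, above the highest control at 6.86%, and the Timp3 shares of 12.5, 6.79 and 10.3% overlapped the controls, which reached 10.2%. The marker sum rests largely on Gsn (424 ± 62.2 CPM in controls), so these shares are not values per fibroblast. The part of these cell types in the changes of Postn and Timp3 was not tested.

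**Figure D3:**
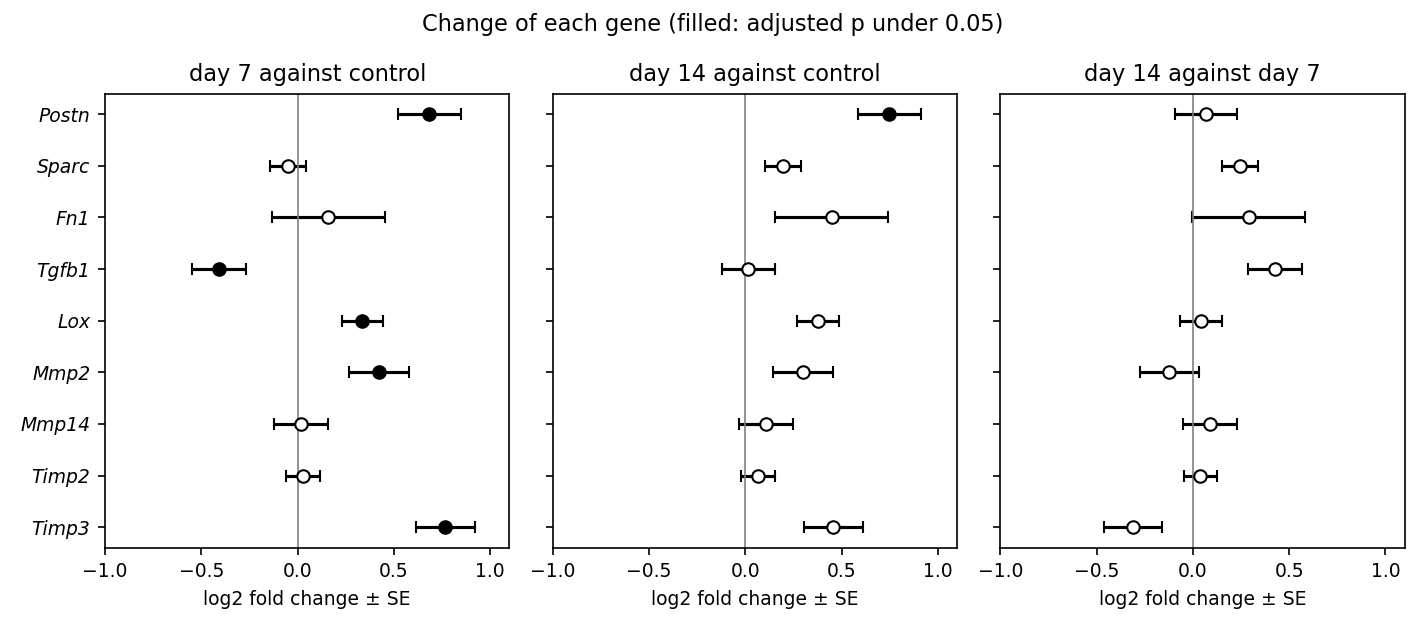
Log2 fold change with its SE (bars) of each of the 9 genes in the 3 comparisons, from edgeR on all 9 libraries; filled points passed an adjusted p of 0.05. Filled points are Postn, Tgfb1, Lox, Mmp2 and Timp3 at day 7 and Postn at day 14, both against control, and there are none between day 14 and day 7.

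The members differ in exonic length and base composition, and the tests were repeated with each library corrected for both. Postn (GC content 41.9%) and Lox (43.3%) have a lower GC content than most tested genes, 8.92% and 13.9% of which lay below them, and Postn, Timp3 and Fn1 have more exonic sequence than 87.1%, 84.5% and 94.4% of them. After each library was corrected for length and GC content, Timp3 (log2 0.48, adjusted p = 0.00567), Mmp2 (0.55, adjusted p = 0.00645) and Tgfb1 (−0.41, adjusted p = 0.031) still passed at day 7, where 20.3% of all genes did. Postn at 0.24 (adjusted p = 0.226) and Lox at 0.080 (adjusted p = 0.618) did not, and at day 14 no member passed, with Postn at 0.44 (adjusted p = 0.117), where 0.899% of all genes did. Tgfb1 then passed between day 14 and day 7 (log2 0.46, adjusted p = 0.0412), where 6.03% of all genes did. With the longest coding transcript in place of all exons, Postn passed at day 7 (0.42, adjusted p = 0.0448) and Tgfb1 did not (−0.20, adjusted p = 0.349).

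**Figure D4:**
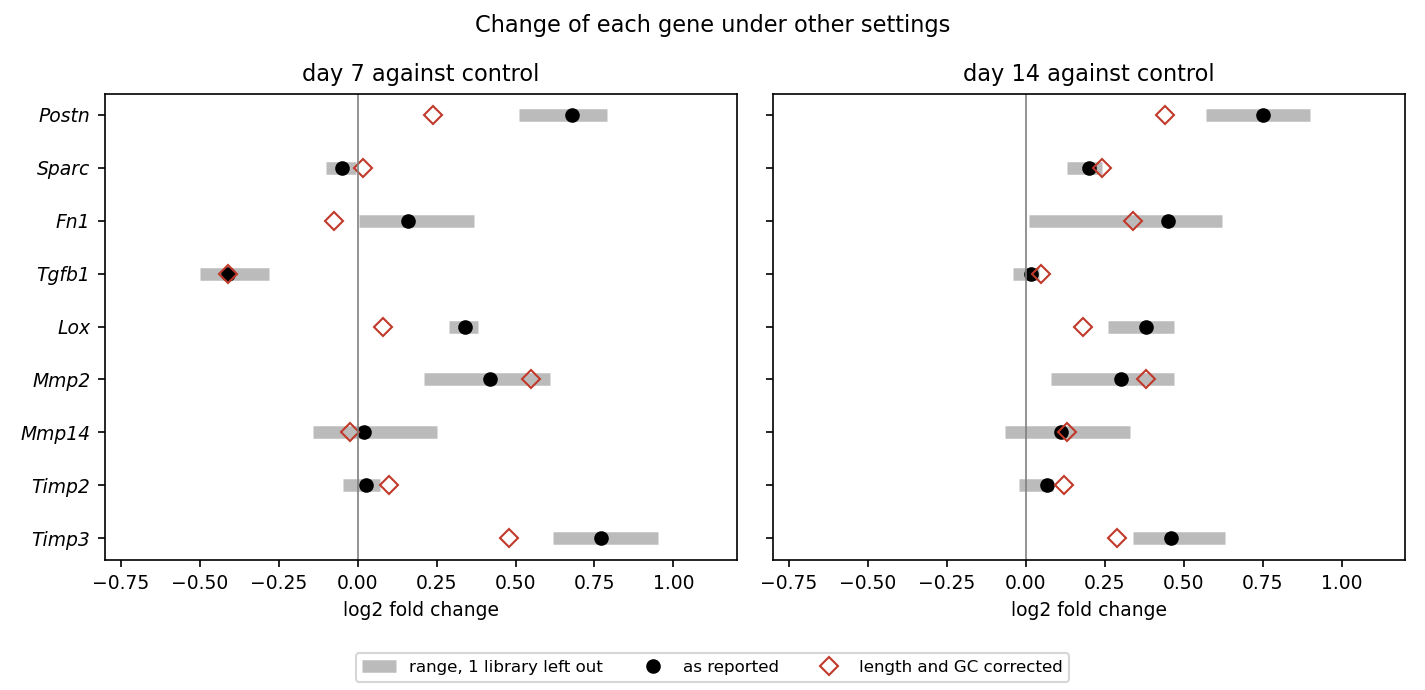
Log2 fold change of each of the 9 genes against control at day 7 and day 14: the reported value (black points), the value after the length and GC correction (open red diamonds) and the range over fits that left out 1 library (grey bars). At day 7 Timp3, Postn, Lox and Mmp2 keep a positive value and Tgfb1 a negative one in each setting shown, with Lox at 0.080 after the correction.

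The balance of protease and inhibitor RNA was measured within each library as ratios of counts per kilobase, which do not depend on how libraries are scaled. Protein and protease activity were not measured. The ratios use the same counts as the tests of each gene (log2 0.020 for Mmp14 and 0.766 for Timp3 at day 7), so they are not separate evidence. The Mmp14/Timp3 ratio was 1.54, 0.926 and 0.747 in controls, 0.526, 0.661 and 0.682 at day 7 and 0.709, 0.892 and 0.840 at day 14. The day 7 libraries lay below all controls and all day 14 libraries, with a difference from control of −0.72 on the log2 scale and of 0.39 between day 14 and day 7. Each gave p = 0.10 in a two-sided exact permutation test, the smallest that 3 libraries against 3 allow, and an adjusted p = 0.600 over the 12 tests of 4 ratios. The difference from control was −0.43 without control 1, whose ratio was the highest, and −0.95 without control 3. After the length and GC correction this difference was −0.48.

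The Mmp2/Timp2 ratio was 0.218, 0.204 and 0.122 in controls, 0.214, 0.237 and 0.257 at day 7 and 0.218, 0.217 and 0.198 at day 14. Its groups overlapped, with control library 3 lowest, and the log2 difference at day 7 was 0.42 (exact permutation p = 0.20), or 0.16 without control 3 and 0.58 without control 1. The Mmp14/Timp2 ratio differed from control by 0.02 at day 7 and the Mmp2/Timp3 ratio by −0.32 (exact permutation p = 0.90 and 0.50). Both changed sign after the length and GC correction, to −0.09 and 0.09, and leaving out 1 library gave −0.07 to 0.21 and −0.72 to −0.06.

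**Figure D5:**
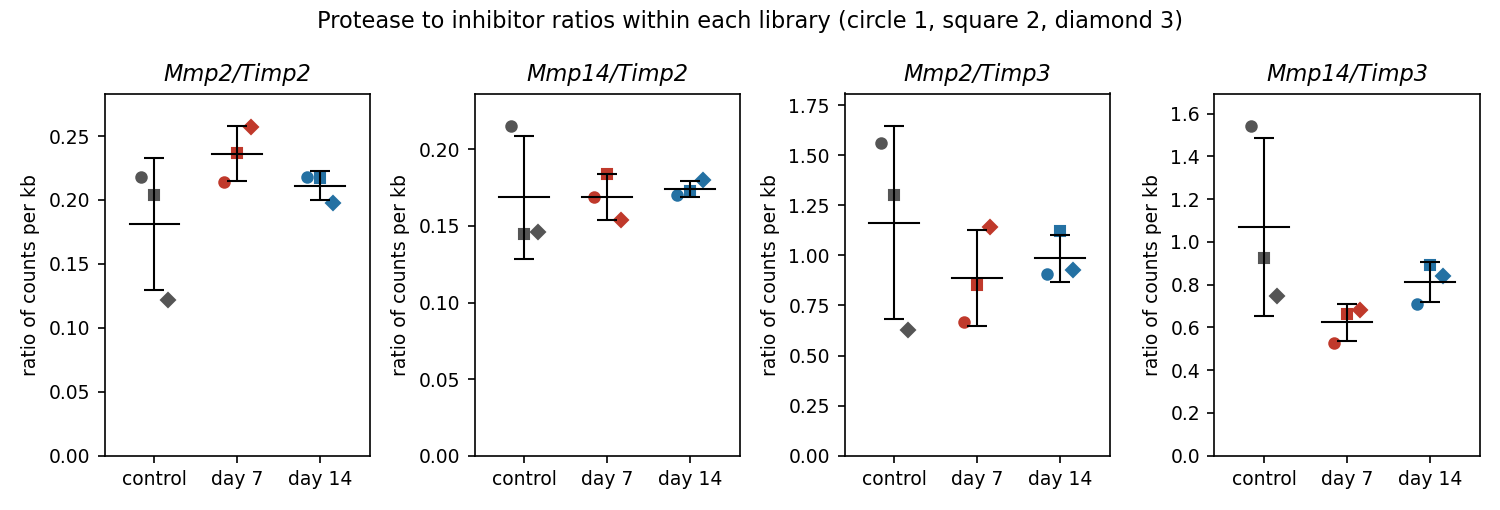
Ratios of counts per kilobase of a protease to an inhibitor within each library, by group, with mean and SD of 3 libraries; axes start at 0 and differ between panels. The Mmp14/Timp3 ratio is lower in the 3 day 7 libraries (0.526 to 0.682) than in the 6 others, and the other 3 ratios overlap between groups.

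Counts in this and the following lists are to be read beside the shares over all tested genes. At day 7 15.8% of these passed as higher and 14.8% as lower, and after the length and GC correction 1251 and 1858 of 15348 genes. At day 14 against control 1.13% passed as higher, and from day 7 to day 14 6.59% passed in either direction. Among the other genes of these pathways, the matricellular list had 18 genes with 16 tested, members included. Of these, 3 rose at day 7 (Tnc, Postn and Sparcl1), 1 rose at day 14 against control (Postn) and 1 fell from day 7 to day 14 (Tnc), and the median log2 change at day 7 was 0.073 (2 rose after the length and GC correction, without Postn). Tnc, the matricellular protein tenascin C, went from 25.6 ± 4.22 CPM in controls to 55.6 ± 7.68 at day 7 and 31.2 ± 4.71 at day 14. It rose 2.17-fold at day 7 (log2 1.12, SE 0.142, adjusted p = 3.51e-05) and fell by 0.83 from day 7 to day 14 (SE 0.140, adjusted p = 0.00175), each also with any library left out. At day 14 Tnc did not pass against control (log2 0.29, adjusted p = 0.256). Sparcl1, a relative of Sparc, rose by log2 0.36 at day 7 (SE 0.108), and the call ended on removing control 1 or day 7 library 3. The matricellular genes Ccn2 (log2 0.09, SE 0.282) and Thbs1 (0.35, SE 0.180) did not pass at day 7. The exons of Tnc overlap those of 8030451A03Rik on the other strand, and those of Ccn2, Thbs1, Fbn1, Ltbp2, Itgav, Tgfb2, Tgfb3, Bhlhe40, Cdkn1a, Ppib, Loxl2, Adamts9, Mmp12 and Timp4 also overlap a gene on the other strand. No source used here says whether counting used strand, so reads of such pairs cannot be told apart.

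The list of fibronectin, elastic fibre and fibulin genes had 18 of 19 tested, of which 2 rose at day 7 and fell from day 7 to day 14, and the median at day 7 was 0.125. Both encode latent TGF-beta binding proteins. Ltbp2 rose by log2 0.90 at day 7 (SE 0.204, adjusted p = 0.00281) and fell by 0.73 afterwards (SE 0.202, adjusted p = 0.0363). Ltbp4 rose by 0.26 (SE 0.0929, adjusted p = 0.0396) and fell by 0.40 (SE 0.0929, adjusted p = 0.0162). The rise of Ltbp4 was called in 6 of 12 alternative settings, and was 0.20 (adjusted p = 0.131) after the length and GC correction and 0.05 (adjusted p = 0.752) after length alone. Ltbp2 alone rose at day 7 on removing control 1, control 2, or library 1 or 2 of either irradiated group, and neither fall was called on removing day 7 library 1, day 7 library 2 or day 14 library 1. The fibrillin Fbn1 did not pass (log2 0.19, SE 0.161 at day 7, and 0.50, SE 0.160 at day 14).

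All 15 genes of TGF-beta ligands, activation and receptors were tested. At day 7, 5 rose and Tgfb1 fell, with a median of 0.255, and after the length and GC correction 2 rose and the median was −0.005. The receptor genes Tgfbr2 (log2 0.47, SE 0.110, adjusted p = 0.00335) and Tgfbr3 (0.60, SE 0.143, adjusted p = 0.00372) and the signal transducer Smad4 (0.52, SE 0.0973, adjusted p = 0.000598) rose, also with any library left out. After the length and GC correction Tgfbr3 and Smad4 passed and Tgfbr2 (0.27, adjusted p = 0.0602), Itgav and Smad3 did not, and with the longest coding transcript Tgfbr2 was at 0.16 (adjusted p = 0.297) and Tgfbr3 at 0.32 (adjusted p = 0.106). Itgav (0.48, SE 0.148) and Smad3 (0.35, SE 0.110) rose too, but Itgav was no longer called on removing control 1, control 2, day 7 library 1 or day 7 library 3, nor Smad3 on removing control 3, day 7 library 1 or day 7 library 2. Without day 7 library 1, 3 of the list rose. Smad4 was also higher at day 14 against control (0.47, SE 0.0973, adjusted p = 0.0303), which ended on removing control 1, control 2 or any day 14 library. The other ligands, Tgfb2 (0.12, SE 0.187) and Tgfb3 (−0.12, SE 0.119), did not pass at day 7.

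Of 16 genes known to respond to TGF-beta, 5 rose and 1 fell at day 7, with a median of 0.127. Bhlhe40, a transcription factor that is also part of the clock, rose by log2 1.00 (SE 0.144, adjusted p = 0.000164), Cdkn1a, also a target of p53, by 1.30 (SE 0.176, adjusted p = 4.88e-05) and Col1a1, a chain of type I collagen, by 0.62 (SE 0.120, adjusted p = 0.000814). Ltbp2 and Postn were the others. Pmepa1, a negative regulator of the pathway, fell by 0.60 (SE 0.148, adjusted p = 0.00482). Ccn2, also a target, did not pass, as given above. At day 14 against control Cdkn1a (1.49, SE 0.175), Postn and Skil (0.70, SE 0.172) rose, and 1 of the list did on removing control 1, control 2, day 14 library 1 or day 14 library 2. After the length and GC correction Cdkn1a alone of these rose at day 14. From day 7 to day 14 Bhlhe40 fell by 0.51 (SE 0.142; −0.47 and adjusted p = 0.0684 after that correction) and Ltbp2 fell as given above, and neither was called on removing day 7 library 1, day 7 library 2 or day 14 library 1.

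Of 22 genes of collagen crosslinking and maturation 20 were tested. At day 7 Lox rose and Crtap, Ppib and Serpinh1 fell, with a median of 0.015. The 3 that fell encode parts of the collagen folding and hydroxylation machinery of the endoplasmic reticulum. Serpinh1, the collagen chaperone HSP47, went from 50.1 ± 4.72 to 36.9 ± 2.41 CPM (log2 −0.44, SE 0.107, adjusted p = 0.00426), and Ppib, a prolyl isomerase, fell by 0.45 (SE 0.108, adjusted p = 0.00416), both also with any library left out. With the longest coding transcript in the correction Ppib was at −0.05 (adjusted p = 0.783). After the length and GC correction Serpinh1 was at −0.17 and Crtap at −0.11, neither called. Crtap fell by 0.43 (SE 0.141), which ended on removing control 1, control 2 or any day 7 library. From day 7 to day 14 Serpinh1 (0.38, SE 0.106) and the prolyl hydroxylase P4ha1 (0.40, SE 0.113) rose, and neither was called on removing control 2 or any irradiated library, nor Serpinh1 after the length and GC correction (0.27, adjusted p = 0.155). The relatives of Lox, Loxl1 (0.01, SE 0.198) and Loxl2 (0.03, SE 0.195), did not pass at day 7.

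Of 28 metalloproteinase genes 18 were tested, and 3 rose at day 7 (Mmp2, Adam10 and Adamts9), 1 at day 14 against control (Mmp12) and 1 from day 7 to day 14 (Mmp3). The median at day 7 was 0.115. After the length and GC correction 2 rose and the median was −0.004, with Adamts9 at 0.29 (adjusted p = 0.402). The membrane protease Adam10 rose by log2 0.70 (SE 0.167, adjusted p = 0.00589), also with any library left out but not with the longest coding transcript in the correction (0.36, adjusted p = 0.0518). Adamts9 rose by 0.68 (SE 0.215), which ended on removing control 3, day 7 library 1 or day 7 library 2, and in the last 2 fits Adam10 alone rose. Mmp12, the macrophage elastase, went from 1.24 ± 0.477 CPM in controls to 2.26 ± 0.483 at day 7 and 4.73 ± 1.24 at day 14. Mmp12 was 3.77-fold higher at day 14 than in controls (log2 1.91, SE 0.352, adjusted p = 0.0174), which ended on removing control 1, control 2 or day 14 library 2. Macrophage markers summed to 222 to 268 CPM at day 14, above 173 to 192 in controls and 135 to 178 at day 7, and the part of macrophages in this rise was not tested. Mmp3 rose by 1.01 from day 7 to day 14 (SE 0.278, adjusted p = 0.0350), which ended on removing any day 7 library, day 14 library 2 or day 14 library 3. After the length and GC correction Mmp3 (0.88, adjusted p = 0.0543) did not pass there and Mmp12 did (1.18, adjusted p = 0.0296). Without control library 3, 3 of the list rose at day 14 against control, in a fit that called 1937 genes. Mmp7, Mmp10 and Mmp20 had no counts in any library.

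Of 12 protease inhibitors and plasmin system genes 10 were tested, and Timp3 and Reck rose and Plaur fell at day 7, with a median of −0.020 (0.214 after the length and GC correction). Reck, a membrane-anchored inhibitor of metalloproteinases including MMP14, went from 3.89 ± 1.15 CPM in controls to 10.6 ± 1.03 at day 7 and 4.75 ± 1.03 at day 14. It rose 2.70-fold at day 7 (log2 1.43, SE 0.237, adjusted p = 0.000239) and fell by 1.15 from day 7 to day 14 (SE 0.233, adjusted p = 0.00663), each also with any library left out. Plaur, the urokinase receptor, fell by 0.56 (SE 0.145, adjusted p = 0.00678), which ended on removing control 1 and after the length and GC correction. Timp1 (log2 −0.21, SE 0.400) did not pass at day 7, and Timp4 had too few counts to be tested.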

How the data were processed

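Total RNA of 9 sublingual gland libraries (3 control, 3 at day 7 and 3 at day 14 after 10 Gy) was analysed from whole-number read counts per Ensembl gene that the authors deposited for each library. STAR, featureCounts, DESeq2 and the mm10 build are named in the submitters' processing notes, and no source used here gives versions, settings or strand use. Symbols, coordinates, exonic lengths and GC content came from GENCODE M21 (GRCm38), and promoter windows from RefSeq (GRCm38.p6), which held 7 windows for 6 members. Of 54532 genes, 54409 matched a symbol. Library totals were 15962399 to 19441239 counts, and intervals from so few libraries cover the spread between these samples only.

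Genes were filtered with filterByExpr (15348 kept), scaled by TMM and tested with edgeR 4.0.16 (quasi-likelihood, all 9 libraries in 1 fit, no covariates, R 4.3.3) with Benjamini-Hochberg adjustment over all tested genes. Ratios within libraries were compared by two-sided exact permutation tests. Alternatives were DESeq2 1.42.0, limma-voom (limma 3.58.1), other scalings and filters, a stricter threshold of 0.01, fits of 6 libraries, a block for replicate number, removal of each library in turn, and a correction of each library for length and GC content by splines with 5 degrees of freedom. Corrections for length or GC alone, and with the longest coding transcript, were chosen after seeing the data. The edgeR fit was tested on simulated data.

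The members and gene lists were chosen with earlier results of these data known. All members are named, then of each list up to 4 genes with the smallest p and every called gene where a direction held at most 5, and for each member the 3 genes nearest in profile were sought. Genes named without a call (Ccn2, Thbs1, Fbn1, Tgfb2, Tgfb3, Loxl1, Loxl2, Timp1, Timp4, Mmp7, Mmp10 and Mmp20) were chosen after their values were seen unless that rule names them.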

Additional observations from a re-analysis of the deposited data

Results flagged for a closer look

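Of the genes in the pathway lists, 8 differed between the irradiated groups in edgeR's test of day 14 against day 7, and none of the 9 members did. The lists held 16, 18, 15, 16, 20, 18 and 10 tested genes, some of them repeated. Over all tested genes 6.59% passed in that comparison, so the count alone does not set these lists apart. Reck differed by −1.15 on the log2 scale, Tnc by −0.83, Ltbp2 by −0.73, Bhlhe40 by −0.51 and Ltbp4 by −0.40. Mmp3 differed by 1.01, P4ha1 by 0.40 and Serpinh1 by 0.38. The differences of Reck and Tnc were called with any library left out, and each of the others was lost in at least 1 such fit.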

How the results depend on the processing

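Timp3 was called at day 7 under every alternative run, and Postn in every fit that left out 1 library. Of the results that changed, the cause was not tested. At day 7, genes called numbered 2631 and members 2 at an adjusted p under 0.01, 3109 and 3 after the length and GC correction, and 2671 and 3 with the longest transcript. Members numbered 3 after length alone and 3 after GC alone, where genes called lay within the 2631 to 5985 of all alternatives. At day 14 against control, genes numbered 11 and members 0 under 0.01, 1300 and 3 with no filter, 1042 and 3 in DESeq2, 1678 and 3 in limma-voom, 138 and 0 after length and GC, 165 and 0 after length alone, 107 and 0 with the longest transcript, and 157 and 0 with 6 libraries. Members numbered 0 after GC alone, where genes called lay within the 11 to 1678 of all alternatives. Between day 14 and day 7, genes numbered 264 under 0.01 and 1874 in limma-voom. Members numbered 2 in limma-voom and 1 after length and GC, where 6.03% of all genes passed. The replicate numbers did not pair the libraries (correlations of same-numbered deviations −0.112 to 0.037), and with them as a block 113 genes and 0 members were called at day 14 against control, with Postn at 0.75 and, at day 7, Mmp2 at 0.45 short of the threshold. In log2 at day 7, length and GC, length alone, GC alone and the longest transcript gave Lox 0.080, 0.24, 0.069, −0.057, the first 2 gave Postn 0.24, 0.39 and Mmp14 −0.024, −0.17, and the last 2 gave Tgfb1 −0.28, −0.20. Sparc turned to 0.016, 0.014, 0.087 (length and GC, GC, longest transcript), Fn1 to −0.076, −0.21, −0.13 (length and GC, length, longest transcript) and Timp2 to −0.023 (longest transcript), and Mmp2 fell short at 0.41, 0.41, 0.41 (DESeq2 size factors, scaling without the 20 most abundant genes, 6 libraries). At day 14 against control Postn fell short at 0.44, 0.57, 0.52, 0.54, 0.75 (the 4 corrections, 6 libraries), Tgfb1 turned to −0.004, −0.002, −0.004, −0.057 (DESeq2 size factors, without the 20 genes, DESeq2, length) and Mmp14 to −0.008 (length), and Lox at 0.38, 0.36, 0.35 and Timp3 at 0.46, 0.44, 0.61 passed with no filter, in DESeq2 and in limma-voom. Between day 14 and day 7 Sparc at 0.28 and Tgfb1 at 0.45 passed in limma-voom, and Tgfb1 at 0.46 after length and GC. With 1 library left out, day 7 against control, the values ranged for genes called 3106 to 5314, members called 2 to 4, Tgfb1 −0.50 to −0.28, Lox 0.29 to 0.38, Mmp2 0.21 to 0.61, Mmp14 −0.14 to 0.25, Timp2 −0.047 to 0.070. With 1 library left out, day 14 against control, the values ranged for genes called 13 to 1937, members called 0 to 3, Postn 0.57 to 0.90, Tgfb1 −0.041 to 0.042, Lox 0.26 to 0.47, Mmp14 −0.067 to 0.33, Timp2 −0.020 to 0.087, Timp3 0.34 to 0.63. With 1 library left out, day 14 against day 7, the values ranged for genes called 330 to 1415, Postn −0.034 to 0.22, Fn1 −0.14 to 0.46, Lox −0.067 to 0.13, Timp2 −0.004 to 0.066. For counting error only, a count of 0 allows 0.154 to 0.188 CPM. With 3 libraries a group, an exact test of a single value cannot go below p = 0.10.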
